A study of Arabidopsis with 8 samples.

Results

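The 9 genes described here make or regulate the indole glucosinolates of Arabidopsis thaliana: 6 enzymes (CYP79B2, CYP79B3, CYP83B1, SUR1, SOT16 and CYP81F2) and 3 transcription factors of the MYB family (MYB34, MYB51 and MYB122). They were chosen by name for their role in the pathway, with earlier results of these data known. They were found by locus identifier among 25397 genes listed in at least 1 library, and all 9 were listed in each of the 8 libraries. The study measured RNA by Illumina sequencing in seedlings 5 days old, separated into root and shoot part, from the wild type accession Col-0 and from a quadruple mutant labelled saur41/40/71/72. Each genotype and tissue has 2 libraries, and the labels give no treatment, no mutant allele and no number of plants per library. Nor do they state that replicates were grown separately, so p-values measure only the spread between these libraries.

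Glucosinolates are sulfur-containing defence compounds of the cabbage family, and the indole class is made from tryptophan. When tissue is wounded or attacked, enzymes called myrosinases split them into products toxic to herbivores and microbes. Indole-3-acetaldoxime, the intermediate that opens the pathway, is also a precursor of the phytoalexin camalexin and is linked to synthesis of the hormone auxin, which is why loss of CYP83B1 or SUR1 is known to give plants with too much auxin. The mutated SAUR genes belong to the small auxin up RNA family, a class of short proteins linked to cell expansion.

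CYP79B2 (AT4G39950; TAIR10 chromosome 4, 18525246 to 18527579) and CYP79B3 (AT2G22330; chromosome 2, 9488554 to 9491187) are cytochrome P450 enzymes that each turn tryptophan into indole-3-acetaldoxime. CYP83B1 (AT4G31500; chromosome 4, 15273471 to 15275310) oxidizes the aldoxime and commits it to glucosinolates. SUR1 (AT2G20610; chromosome 2, 8877960 to 8880388) is the C-S lyase that frees the thiol group, a step shared with the aliphatic class. SOT16 (AT1G74100; chromosome 1, 27864345 to 27865694) is a sulfotransferase that adds the sulfate in the last core step. CYP81F2 (AT5G57220; chromosome 5, 23187840 to 23189857) hydroxylates the indole ring of the finished compound, a modification needed in defence against fungi. MYB34 (AT5G60890; chromosome 5, 24494691 to 24496351), MYB51 (AT1G18570; chromosome 1, 6389411 to 6391267) and MYB122 (AT1G74080; chromosome 1, 27855699 to 27857534) activate genes of this pathway. None of the 9 shared its deposited locus with another gene. SOT16 and MYB122 lie 6810 bases apart on chromosome 1 with 2 listed genes between them.

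Values are FPKM, fragments per kilobase of transcript, scaled to the number of mapped fragments, so levels can be set side by side between genes. A change is a difference in log2(FPKM + 1), labelled mutant minus Col-0, with its standard error (SE) from limma; the 1 added to each value shrinks the changes of weakly expressed genes. A gene is said to pass when its Benjamini-Hochberg adjusted p over all 19985 genes tested was under 0.05. The tissue labels were checked with markers: 7 root markers summed to 608 to 669 FPKM in the root libraries and to 2.37 to 5.57 FPKM in the shoot libraries, and 6 shoot markers to 110 to 114 FPKM in root and to 35840 to 47350 FPKM in shoot. EXPA7 among the root markers was at 0 in shoot, and FAMA among the shoot markers was at 0 in root.

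The Col-0 shoot pair stood apart from the other pairs. The median absolute difference between its 2 libraries was 0.40 in log2(FPKM + 1), against 0.11 in Col-0 root, 0.09 in labelled-mutant root and 0.09 in labelled-mutant shoot. Replicate 2 minus replicate 1 of Col-0 shoot had a median of 0.27 over all genes tested. Over the 9 genes it was 0.35, and 8 of them were higher in replicate 2. LHCB1.3, a shoot marker, was not listed in Col-0 shoot replicate 1. It was at 21260 FPKM in Col-0 shoot replicate 2 and at 16940 and 15860 FPKM in labelled-mutant shoot. The shoot marker sum of 35840 FPKM in Col-0 shoot replicate 1 therefore lacks this gene. Relative depth, read from the steps between low FPKM values and set to 1 in the first Col-0 library of each tissue, was 0.875 to 1.08 in root; in shoot it was 0.897 in Col-0 replicate 2 and 1.18 and 1.22 in the labelled-mutant libraries. Of the mutated genes, SAUR72 was at 23.4 and 31.6 FPKM in Col-0 root, against 16.9 and 16.3 in the libraries labelled mutant, and at 9.41 and 7.57 against 4.18 and 3.96 FPKM in shoot. SAUR71 was at 7.91 and 5.22 against 3.28 and 3.02 FPKM in shoot and under 1 FPKM in root. SAUR41 overlapped between the genotypes, at 7.10 to 7.98 FPKM in root and 0.745 to 1.21 FPKM in shoot, and SAUR40 was under 0.1 FPKM throughout. None of the 3 mutated genes tested passed in either tissue (SAUR40 was not tested).

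In shoot, 8 of the 9 genes were higher in both labelled-mutant libraries than in both Col-0 libraries, and MYB122 was the exception. MYB34 rose 2.61-fold and passed the test; CYP81F2 at 4.31-fold and MYB51 at 2.19-fold did not pass, nor did the 5 core enzymes, whose ratios of means ran from 1.31 for SOT16 to 1.70 for CYP79B3. Over all genes tested, 56.8% lay above Col-0 without overlap, 0.961% passed as higher and 1.02% passed in either direction. The median change of all genes tested was 0.31, against 0.71 for the 9 genes. Of the 9, 8 had an unadjusted p under 0.05, which 38.7% of all genes had. In bulk tissue, a change in the RNA of each cell and a change in the share of cells that make it cannot be told apart.

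MYB34 was measured at 19.1 and 25.8 FPKM in Col-0 shoot, compared with 61.0 and 56.3 FPKM in those labelled mutant. Both labelled-mutant values were far above both Col-0 values. The change was 1.36 (SE 0.16, limma adjusted p = 0.0447), or 1.05 over the median of all genes. With shoot fitted alone, each member tested had a larger SE than in the joint fit, and MYB122 was not tested. For MYB34 that SE was 0.21 and it did not pass (limma adjusted p = 0.299), nor did any other gene. The call was lost in 12 of 18 alternative treatments, among them a replicate block (adjusted p = 0.0575), median-ratio rescaling within a tissue (0.92, adjusted p = 0.0687), and the omission of any root library or of either labelled-mutant shoot library; the change kept its sign in each.

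MYB51 was at 6.55 and 11.4 FPKM in Col-0 shoot, against 17.8 and 21.4 in the shoot labelled mutant. The groups did not overlap, but the Col-0 libraries differed widely between themselves. The change was 1.09 (SE 0.27, limma adjusted p = 0.0731). MYB122 was near the bottom of the scale in every shoot library, at 0.0437 and 0.0475 FPKM in Col-0, compared with 0.0541 and 0.0354 in the libraries labelled mutant. Its groups overlapped and its change was -0.00 (95% interval -0.23 to 0.22), so MYB122 entered the test through its root level alone. The sum of the 3 regulators was 25.7 and 37.2 FPKM in Col-0 shoot, against 78.9 and 77.8 in the shoot labelled mutant. MYB34 made up 69.3% to 77.3% of that sum in the 4 shoot libraries, with the genotypes overlapping, so the composition of the trio was similar while its sum differed.

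**Figure D1:**
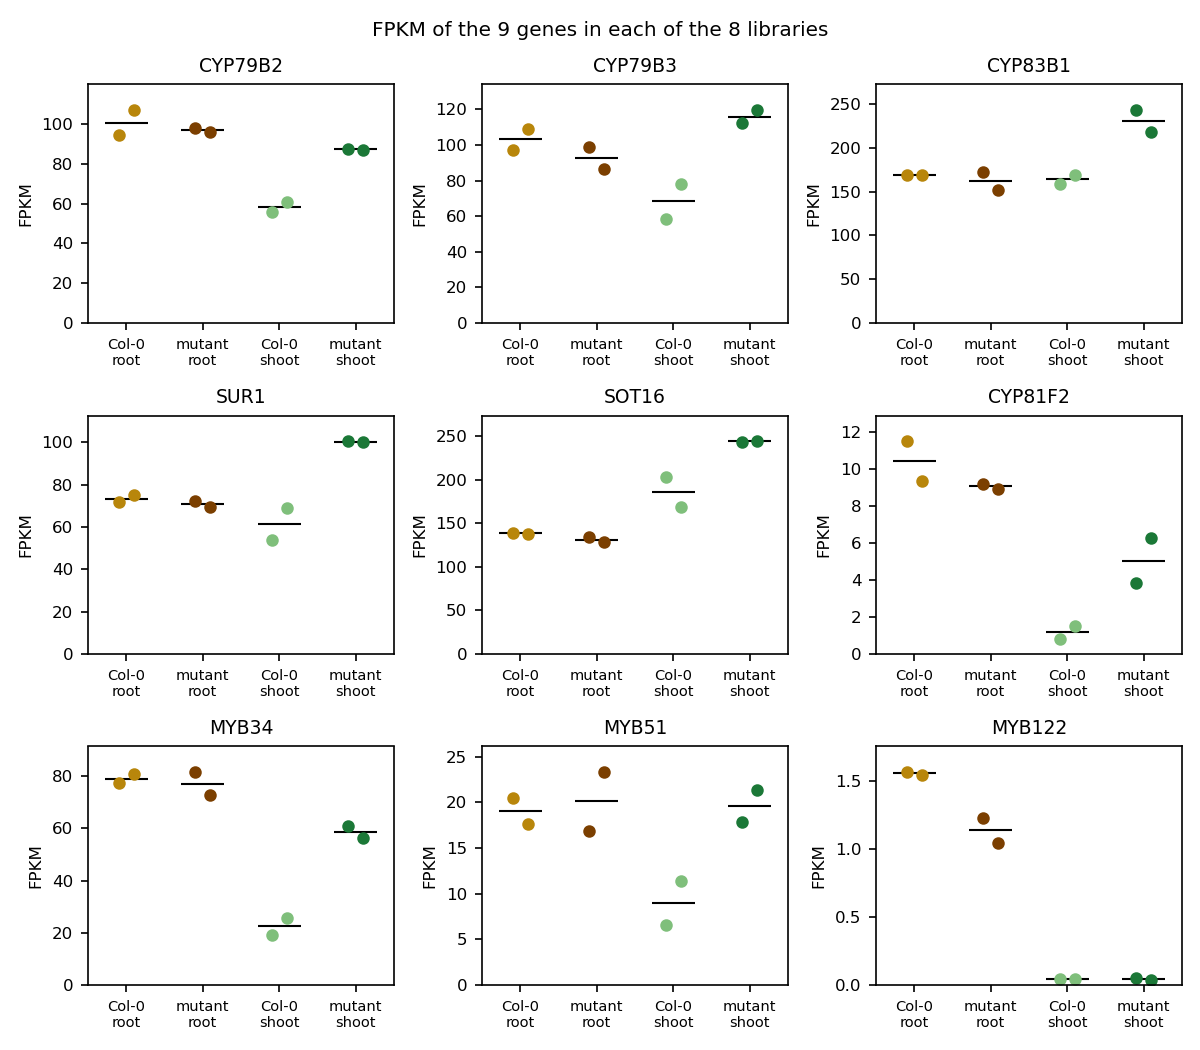
FPKM of each of the 9 genes (vertical axes, each starting at 0) in the 2 libraries of each of the 4 groups (points), with the group mean as a bar; "mutant" stands for the libraries labelled saur41/40/71/72. In shoot 8 of the 9 genes are higher in both mutant libraries, and MYB122 is under 0.1 FPKM in all 4 shoot libraries.

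CYP79B2, at the entry of the pathway, was at 55.7 and 60.6 FPKM in Col-0 shoot, against 87.5 and 87.1 in the shoot labelled mutant. CYP79B3, its partner in the same reaction, was at 58.4 and 78.2 FPKM in Col-0, compared with 112 and 120 in the libraries labelled mutant. Both genes were higher in each labelled-mutant library, and CYP79B3 exceeded CYP79B2 in all 4. The changes were 0.58 (SE 0.11, limma adjusted p = 0.0561) for CYP79B2 and 0.77 (SE 0.16, limma adjusted p = 0.0633) for CYP79B3, and 0.13 and 0.32 after median-ratio rescaling within shoot. The pair summed to 114 and 139 FPKM in Col-0 shoot, against 200 and 207 in the shoot labelled mutant. As deposited, the latter values were like the 183 to 216 FPKM of the 4 root libraries. After median-ratio rescaling over all libraries they were not alike. Root minus shoot in the libraries labelled mutant was then -0.72 for CYP79B2 and -1.195 for CYP79B3.

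CYP83B1 was at 159 and 170 FPKM in Col-0 shoot, against 243 and 218 in the shoot labelled mutant. SUR1 was at 54.0 and 69.2 FPKM in Col-0, compared with 101 and 100 in the libraries labelled mutant. SOT16 was at 203 and 169 FPKM in Col-0, compared with 244 in both libraries labelled mutant. In each of these enzymes the genotypes did not overlap, and SOT16 was the member whose 2 Col-0 shoot libraries ran the other way, with replicate 1 the higher. The changes were 0.48 for CYP83B1 (SE 0.12, limma adjusted p = 0.069), 0.71 for SUR1 (SE 0.14, limma adjusted p = 0.0563) and 0.40 for SOT16 (SE 0.12, limma adjusted p = 0.0848). Relative to the median of all genes they were 0.17, 0.39 and 0.08, and after median-ratio rescaling within shoot they were 0.03, 0.26 and, reversed, -0.05.

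CYP81F2 was at 0.827 and 1.51 FPKM in Col-0 shoot, against 3.82 and 6.25 in the shoot labelled mutant. Its level was low in Col-0 shoot, and the groups were well separated. The change was 1.46 (SE 0.25, limma adjusted p = 0.0518), higher than that of 98.3% of the genes tested, against 97.3% for MYB34 and 92.8% for MYB51.

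**Figure D2:**
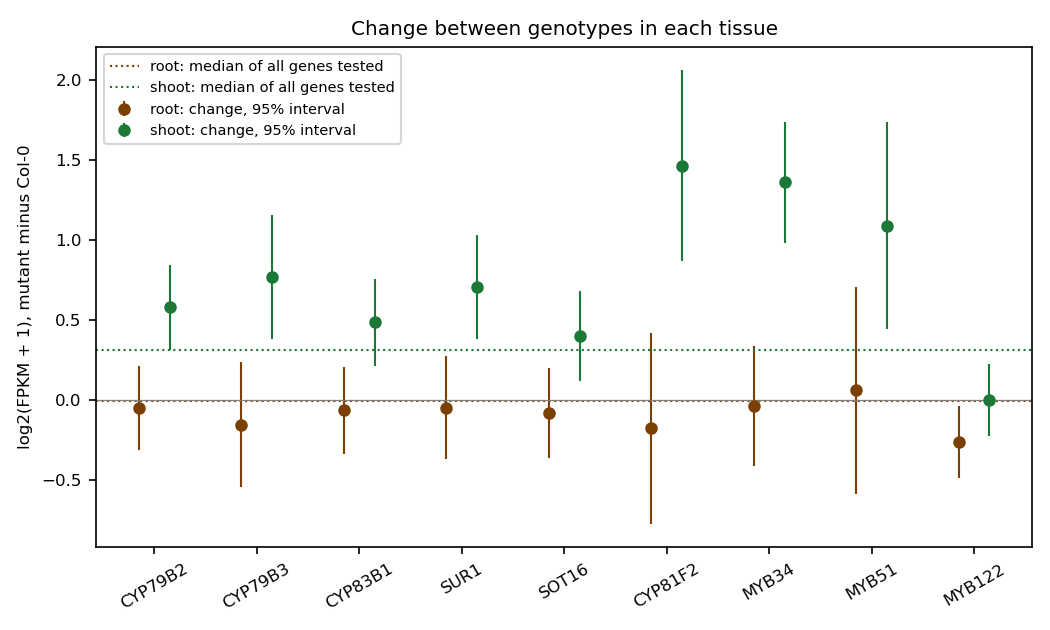
Change of each gene between genotypes (points, log2(FPKM + 1), mutant minus Col-0) with its 95% interval from limma, in root and in shoot; dotted lines are the medians of all 19985 genes tested (-0.00 in root, 0.31 in shoot). The shoot points run from -0.00 for MYB122 to 1.46 for CYP81F2, while the root points lie between -0.26 and 0.06.

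The shoot values depended on the Col-0 pair. Without Col-0 shoot replicate 1, 8 of the 9 genes passed, with MYB34 at 1.15 and CYP81F2 at 1.24, and without replicate 2 the same count passed, with MYB34 at 1.57 and CYP81F2 at 1.69; the remaining Col-0 library is then assumed to vary like those of the other groups. Over all genes tested these omissions gave 5210 calls (26.1%) and 13202 calls (66.1%) against 204 with all libraries. Depth and the number of genes listed moved with genotype in shoot: 21355 and 21862 genes were listed in Col-0 and 22360 and 22477 in the shoot labelled mutant, and the share of all FPKM held by the 10 highest genes was 17.6% and 16.2% against 13.6% and 12.9%. The part of these differences in the shoot result was not tested.

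**Figure D3:**
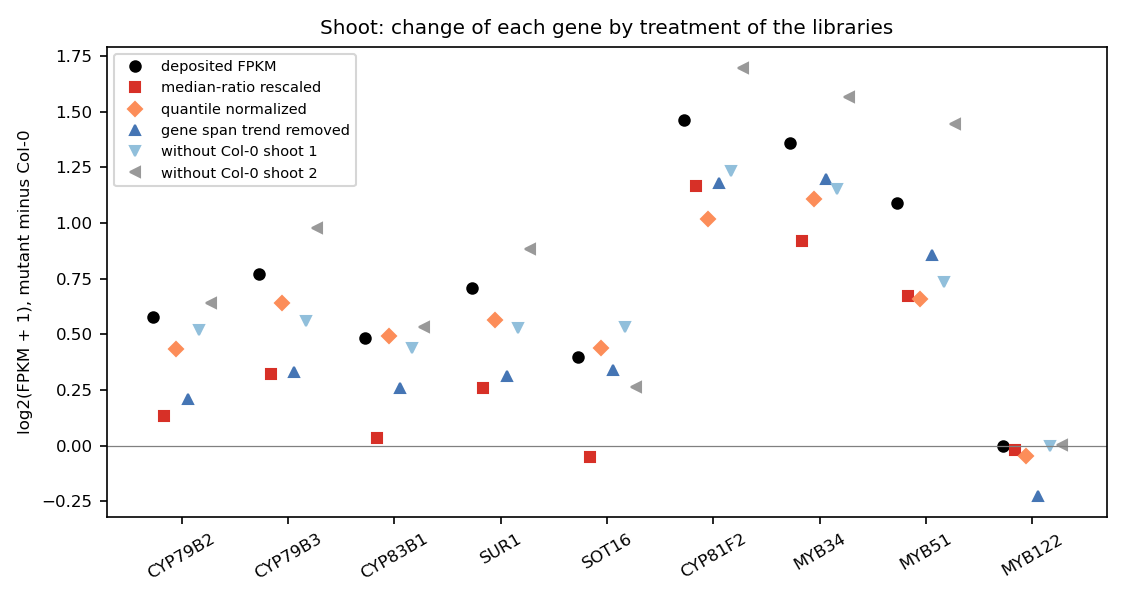
Change of each gene in shoot (log2(FPKM + 1), mutant minus Col-0) with the deposited FPKM and after 5 other treatments of the libraries. MYB34, CYP81F2 and MYB51 are at 0.66 or above under each treatment drawn, and SOT16 runs from -0.05 after median-ratio rescaling to 0.53 without Col-0 shoot replicate 1.

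In root, none of the 9 genes passed (limma), and the levels of the enzymes and of MYB34 were close between the genotypes. Over all genes tested, 0.01% passed, 22.9% lay below Col-0 without overlap and 20.5% above. Of the 9 genes, 3 lay below without overlap (SOT16, CYP81F2 and MYB122), none lay above, and 1 had an unadjusted p under 0.05, which 2.57% of all genes had. The median change of the 9 was -0.06, against -0.00 for all genes. The root intervals come from the joint fit of all 8 libraries, with 1 spread per gene. With root fitted alone the SE was smaller for all but MYB122. It went from 0.12 to 0.07 for SOT16 and from 0.25 to 0.11 for CYP81F2, and from 0.10 to 0.16 for MYB122.

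MYB34 was at 77.2 and 80.9 FPKM in Col-0 root, against 81.6 and 72.6 in the root labelled mutant. MYB51 was at 20.5 and 17.7 FPKM in Col-0, compared with 16.9 and 23.3 in the libraries labelled mutant. For both regulators the Col-0 values lay between the 2 labelled-mutant values. The changes were -0.04 for MYB34 (95% interval -0.41 to 0.34) and 0.06 for MYB51 (95% interval -0.59 to 0.71). MYB122 was at 1.57 and 1.55 FPKM in Col-0 root, against 1.23 and 1.05 in the root labelled mutant. It was lower in both libraries, by 0.26 on the log2 scale (SE 0.10, unadjusted p = 0.0297, limma adjusted p = 1), a difference that did not pass. The 3 regulators summed to 97.0 to 100.1 FPKM in the 4 root libraries, of which MYB34 made up 74.9% to 81.8% and MYB122 1.08% to 1.58%.

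CYP79B2 was at 94.5 and 107 FPKM in Col-0 root, against 98.0 and 96.1 in the root labelled mutant. CYP79B3 was at 97.4 and 109 FPKM in Col-0, compared with 99.0 and 86.7 in the libraries labelled mutant. The genotypes overlapped for both, and each of the pair made up close to an equal share of their sum in root, with CYP79B2 at 49.2% to 52.6%. The changes were -0.05 (95% interval -0.31 to 0.21) and -0.15 (95% interval -0.54 to 0.23).

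CYP83B1 was at 169 FPKM in both Col-0 roots, against 172 and 152 in those labelled mutant. SUR1 was at 71.7 and 75.2 FPKM in Col-0 root, against 72.3 and 69.7 in the root labelled mutant. These genotypes overlapped, with changes of -0.06 (95% interval -0.34 to 0.21) and -0.05 (95% interval -0.37 to 0.27). SOT16 was at 139 and 138 FPKM in Col-0 root, against 134 and 128 in the root labelled mutant. CYP81F2 was at 11.5 and 9.38 FPKM in Col-0, compared with 9.22 and 8.95 in the libraries labelled mutant. Both were a little lower in the libraries labelled mutant without overlap, with changes of -0.08 (95% interval -0.36 to 0.20) and -0.18 (95% interval -0.77 to 0.42).

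**Figure D4:**
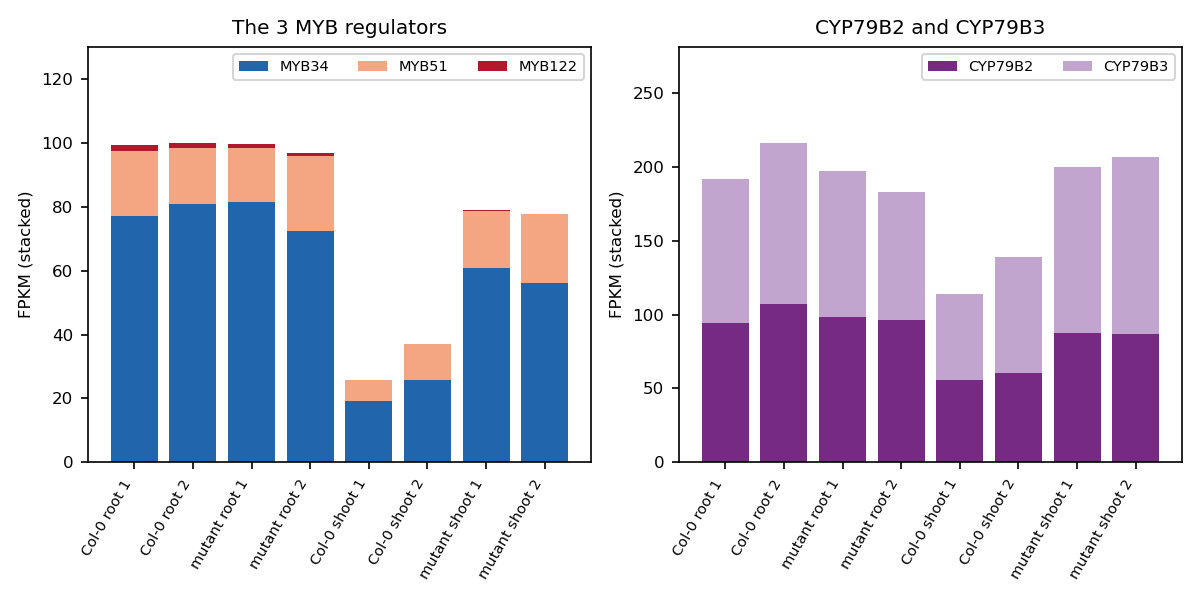
Stacked FPKM of the 3 MYB regulators (left) and of CYP79B2 and CYP79B3 (right) in each of the 8 libraries. The regulators sum to 97.0 to 100.1 FPKM in root, 25.7 and 37.2 FPKM in Col-0 shoot, against 78.9 and 77.8 in mutant shoot.

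The difference between the shoot change and the root change was above 0 for all 9 genes, as it was for 79.1% of the genes tested, and had a median of 0.75 against 0.34. For MYB122, near the bottom of the scale in every shoot library, it reflects the root change (-0.26) and not the shoot change (-0.00). With the trend with gene span removed, the MYB122 difference was -0.0090. The difference passed for none of the 9 and for 0% of all genes (limma). At an unadjusted p under 0.05 there were 8 of the 9 genes and 15.5% of all genes. The difference was 1.64 for CYP81F2 (SE 0.36, limma adjusted p = 0.255), 1.40 for MYB34 (SE 0.22, limma adjusted p = 0.247) and 1.03 for MYB51 (SE 0.38, limma adjusted p = 0.309). For CYP79B3 it was 0.92, for SUR1 0.75, for CYP79B2 0.63, for CYP83B1 0.55, for SOT16 0.48 and for MYB122 0.26, with adjusted p from 0.269 to 0.345. Without Col-0 shoot replicate 1 the count that passed was 7 of 9, beside 10.4% of all genes, and without replicate 2 it was 8 of 9, beside 57.8%.

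Between the tissues of Col-0, 5 genes passed as higher in root and SOT16 as lower, of 8 genes without MYB122; over all genes tested 87.2% passed, 72.1% as higher and 15% as lower. MYB122 is given as a description, since it met the filter on low values in root alone: it was at 1.56 ± 0.01 FPKM in root and 0.0456 ± 0.0027 FPKM in shoot (SD, n = 2). CYP81F2 was at 10.5 ± 1.52 FPKM in root and 1.17 ± 0.48 FPKM in shoot, 8.94-fold higher in root, and MYB34 at 79.0 ± 2.60 and 22.5 ± 4.71 FPKM, 3.52-fold higher. MYB51 (2.13-fold), CYP79B2 (1.73-fold) and CYP79B3 (1.51-fold) also passed as higher in root, with limma adjusted p from 0.000445 to 0.0105.

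CYP83B1 and SUR1 did not pass between the Col-0 tissues, with differences (root minus shoot) of 0.04 (95% interval -0.23 to 0.32) and 0.26 (95% interval -0.06 to 0.58). SOT16, at 139 ± 0.86 FPKM in root and 186 ± 24.4 FPKM in shoot, was lower in root by 0.41 on the log2 scale (limma adjusted p = 0.0128). The 10 highest genes held 16.2% to 17.6% of all FPKM in Col-0 shoot and 3.53% to 3.94% in Col-0 root, and the median difference of all genes was 1.23. Against that median CYP81F2 stood at 1.18, MYB34 at 0.56 and MYB122 at 0.06, and the other 6 genes lay below it. After median-ratio rescaling over all libraries MYB34 (0.41), CYP81F2 (1.41) and MYB122 (0.91) kept their direction. CYP79B2 (-0.61), CYP79B3 (-0.79), CYP83B1 (-1.36), SUR1 (-1.13) and MYB51 (-0.25) reversed. Of the 8 genes without MYB122, 2 then passed as higher in root and 5 as lower. Over all 19985 genes tested, 12667 passed in either direction after this rescaling.

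Between the tissues labelled mutant, 4 of the same 8 genes passed, with CYP81F2 higher in root and CYP83B1, SUR1 and SOT16 lower; over all genes 76.4% passed, 58.7% as higher and 17.7% as lower. With MYB122, which met the filter through root alone, the count was 5. It was lower when any 1 of the labelled-mutant libraries was left out, as was the count over all genes. Shoot MYB34 was 0.284 of its root level in Col-0 and 0.761 in the libraries labelled mutant, where the difference between tissues was 0.39 (limma adjusted p = 0.0587). For CYP81F2 the shoot level was 0.112 of the root level in Col-0 and 0.554 in the libraries labelled mutant, and for MYB51 0.470 and 0.976. For the core enzymes the shoot level in Col-0 was 0.577 (CYP79B2), 0.662 (CYP79B3), 0.972 (CYP83B1), 0.839 (SUR1) and 1.34 (SOT16) of that in root, and in the libraries labelled mutant 0.899, 1.25, 1.42, 1.41 and 1.86. The median difference of all genes was 0.81 in the libraries labelled mutant. Rescaling over all libraries reversed CYP79B2 (-0.72), MYB34 (-0.48) and MYB51 (-0.81) and left CYP81F2 at 0.00. Of these 8 genes none then passed as higher in root and 7 as lower. Over all 19985 genes tested, 11824 passed in either direction after this rescaling.

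In the order of their group means, CYP79B2, CYP81F2 and MYB34 ran from Col-0 root over labelled-mutant root and labelled-mutant shoot to Col-0 shoot. Neighbours in this order overlapped for CYP79B2 and MYB34 between the 2 root groups, and none overlapped for CYP81F2. CYP79B3, SUR1 and CYP83B1 were highest in labelled-mutant shoot, apart from the next group, and their 2 root groups overlapped. SOT16 was highest in labelled-mutant shoot, then Col-0 shoot, Col-0 root and labelled-mutant root, with no neighbours overlapping. For MYB51 the 2 root groups and labelled-mutant shoot overlapped and Col-0 shoot lay below. MYB122 ran in the order Col-0 root, labelled-mutant root and the 2 overlapping shoot groups.

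Of 48 other genes around the pathway, in 7 lists written by function, 47 were tested. In shoot 3 of them passed as higher and none as lower, where 0.961% of all genes passed as higher and 1.02% in either direction. By sign, 39 changes were above 0 and 7 below. Without overlap, 31 genes lay above Col-0 and 3 below (56.8% and 9.48% of all genes). The median change of the 47 was 0.38 against 0.31 for all genes. The 3 that passed were each from another step. ASB1, a subunit of anthranilate synthase that feeds tryptophan synthesis, went from 10.8 and 12.8 FPKM to 25.1 and 31.2 FPKM (change 1.18, SE 0.16, limma adjusted p = 0.046). GGP1, a peptidase that trims the glutathione conjugate in the core pathway, went from 86.2 and 82.1 FPKM to 144 and 182 FPKM (0.94, SE 0.14, limma adjusted p = 0.0479). IGMT5, a methyltransferase of indole glucosinolates, went from 8.63 and 8.10 FPKM to 17.7 and 20.7 FPKM (1.11, SE 0.13, limma adjusted p = 0.0447). Each of these calls, like that of MYB34, was lost in most alternatives (14 of 18), and the count was 22 of 47 without Col-0 shoot replicate 1 (26.1% of all genes), 32 of 47 without replicate 2 (66.1% of all genes) and 0 without any 1 of the other 6 libraries. With the trend with gene span removed the changes were 0.56 for ASB1, 0.67 for GGP1 and 0.26 for IGMT5 (limma adjusted p = 0.587), and after median-ratio rescaling within shoot 0.75, 0.49 and 0.68.

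By list, 1 of 9 genes of tryptophan synthesis passed as higher in shoot (0.961% of all genes did). All 9 lay above Col-0 without overlap, as did 56.8% of all genes. Among the shared core steps 1 of 6 passed as higher, and among the genes of indole ring modification 1 of 6. In tryptophan synthesis ASA1, the other subunit of anthranilate synthase, was named after its values were seen; it was at 10.7 and 23.0 FPKM in Col-0 shoot, against 49.6 and 50.9 in the shoot labelled mutant (1.61, limma adjusted p = 0.0561; 1.09 without Col-0 shoot replicate 1). IGMT1 and IGMT2, near-identical copies between which reads may have been split, are also given after their values were seen: they were at 2.37 and 4.15 against 7.64 and 10.2 FPKM, and at 0.426 and 0.481 against 1.95 and 3.28 FPKM. These levels are well under those of the root, where IGMT1 was at 68.0 to 89.2 FPKM and IGMT2 at 16.1 to 26.1 FPKM.

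The other lists held no gene that passed in shoot: 0 of 6 other regulators, 0 of 4 transporters, 0 of 13 breakdown genes and 0 of 3 genes of the camalexin branch (limma; 3, 3, 5 and 1 at an unadjusted p under 0.05, which 38.7% of all genes had). The median change was 0.54 in the other regulators, 1.03 in transport, 0.04 in breakdown and 0.02 in the camalexin branch. SLIM1, a regulator of the response to sulfur shortage, was at 2.21 and 4.94 FPKM in Col-0 shoot, against 5.90 and 6.01 in the shoot labelled mutant (0.67, limma adjusted p = 0.126). MYC3, a partner of the MYB regulators, overlapped between the genotypes, at 5.60 and 13.6 against 15.3 and 13.3 FPKM (0.63, limma adjusted p = 0.198). In transport, PEN3, an ABC transporter of the plasma membrane, was at 32.2 and 114 FPKM in Col-0, compared with 195 and 254 in the shoot labelled mutant (1.85, limma adjusted p = 0.0799). GTR1, an importer of glucosinolates, was at 53.8 and 89.9 against 191 and 198 FPKM (1.47, limma adjusted p = 0.0518). Leaving out Col-0 shoot replicate 1 or 2 gave 0.23 or 1.11 for SLIM1, 0.06 or 1.21 for MYC3 and 0.96 or 2.75 for PEN3; for GTR1 it gave 1.10 or 1.83, and removal of the span trend gave 0.56.

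Among the breakdown genes, PEN2, a myrosinase that acts on indole glucosinolates in intact cells, was at 29.4 and 52.5 FPKM in Col-0 shoot, against 80.7 and 104 in the shoot labelled mutant (1.20, limma adjusted p = 0.0662). WRKY33, a transcription factor that activates camalexin genes, was at 44.6 and 98.4 against 131 and 203 FPKM (1.29, limma adjusted p = 0.0862). Without Col-0 shoot replicate 1 or 2 the changes were 0.79 or 1.61 for PEN2 and 0.72 or 1.85 for WRKY33. PAD3, which makes camalexin in the last step, was under 0.1 FPKM in shoot.

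In root none of the 47 genes passed (limma), beside 0.01% of all genes, and the median change was -0.03. At an unadjusted p under 0.05 there were 2 of the 47 and 2.57% of all genes. Those 2 were root myrosinases. TGG4 was at 34.8 and 38.6 FPKM in Col-0 root, against 79.4 and 78.3 in the root labelled mutant, a change of 1.08 (SE 0.15, limma adjusted p = 0.327). TGG5, named after its values were seen, was at 30.8 and 32.0 FPKM in Col-0, compared with 63.4 and 61.5 in the libraries labelled mutant, a change of 0.97 (SE 0.13, limma adjusted p = 0.327). They are close paralogs, so reads may have been split between them. With root fitted alone both passed (limma adjusted p = 0.000487 and 0.000615), among 38 genes that passed in that fit. With a library left out of the joint fit the changes ran from 1.01 to 1.16 for TGG4 and from 0.94 to 1.00 for TGG5. PAD3 was at 16.4 and 18.6 FPKM in Col-0 root, against 15.6 and 13.6 in the root labelled mutant (-0.24, limma adjusted p = 1).

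**Figure D5:**
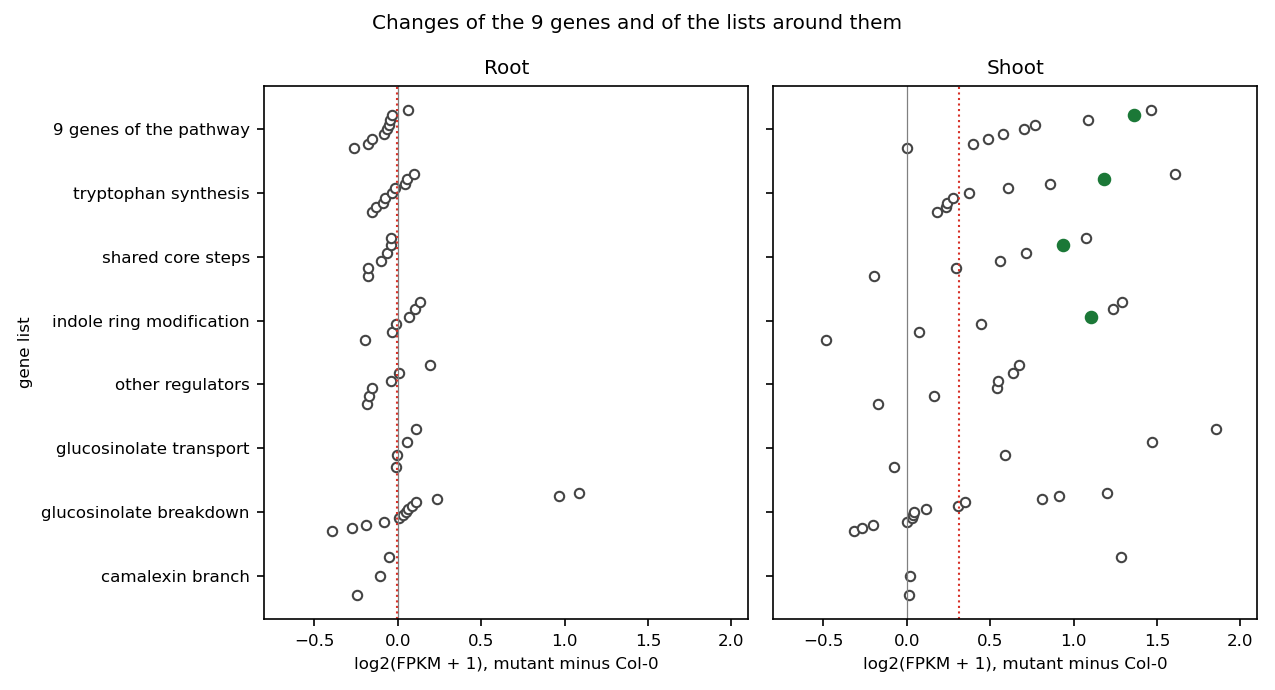
Change of each tested gene (log2(FPKM + 1), mutant minus Col-0) in the 9 genes and in the 7 lists around them, in root (left) and shoot (right); filled points passed at an adjusted p under 0.05 and the dotted line is the median of all genes tested. In shoot the filled points are MYB34, ASB1, GGP1 and IGMT5; in root no point is filled and TGG4 (1.08) and TGG5 (0.97) lie farthest to the right.

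The genes whose pattern was most like that of each of the 9 were found by Pearson's r of log2(FPKM + 1) over the 8 libraries, among 14357 genes with a mean of at least 5 FPKM. The libraries fall into 2 tissues, so r reflects the tissue and the groups shared by all genes and is given as a description. MYB34 and CYP79B2 were close to each other (r = 0.990), and MYB34 was the second of the 3 genes most like CYP79B2, after LPPepsilon1 (0.993) and level with AT4G13110 (0.990). AT4G13110 was the gene most like MYB34 (0.997), followed by NAI1 and INDH (both 0.993). For CYP79B3 the genes were GALS3 (0.992), AK3 (0.980) and AT4G25670 (0.976). For CYP83B1 the highest r was 0.975, with AT4G16060, and then 0.968 with CYP94B1 and 0.961 with PUT4.

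SUR1 was most like AT1G69800 (0.992), TTN9 (0.991) and VTC5 (0.987), and SOT16 most like AT2G38025 (0.991), GSTU5 (0.988) and AT2G36885 (0.987). CYP81F2 was most like AT4G12790, AT3G47550 and AT2G39210, at 0.996 to 0.997. MYB51 was most like AT5G48530 (0.990), AT3G57930 (0.989) and SNRK2-8 (0.988), and MYB122 most like AT2G16385 (0.999), AT5G42090 and AT5G41270 (both 0.998). No member other than MYB34 was among the 3 genes most like another member.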

How the data were processed

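The authors deposited 1 table of FPKM values per library, which lists genes above 0 FPKM with a locus; a gene absent from a table was taken as 0. The build is TAIR10, per the submitters' processing notes, and the sources used here do not give the aligner, the quantifier, strandedness or read totals. Start coordinates had 1 added. Of 25397 loci, 25141, with all 9 members, matched RefSeq (TAIR10.1), used for symbols. FPKM are not counts, so no count model was run. Depth was compared within a tissue only, from the steps between low FPKM values.

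Genes with a mean of at least 1 FPKM over root or over shoot (19985, of which 3124 share a locus) were fitted as log2(FPKM + 1) with limma 3.58.1 (R 4.3.3): 1 model of 4 groups on 8 libraries, 4 residual degrees of freedom, trended robust eBayes, Benjamini-Hochberg over all genes of a contrast, threshold 0.05. The contrasts were genotype in each tissue, their difference, and root minus shoot in each genotype. The fit was tested on simulated data with the same spread per gene in all 4 groups. That test does not cover the wider spread of the Col-0 shoot pair. Tables were handled with Python 3.11.15 and pandas 2.3.3.

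The members and lists were chosen with earlier results of these data known. Named are the 9 members, the 4 mutated genes, up to 4 genes of each list that passed or else the 2 with the largest change, and the 3 genes most like each member; exceptions are marked. Alternatives were pseudocounts of 0.1 and 0.5, a filter of 5 FPKM and none, median-ratio rescaling (within a tissue, or over all libraries for tissue contrasts), quantile normalization, removal of a trend with gene span (lowess, span 0.3), each tissue alone, a replicate block, eBayes without trend, and each library left out. Their use for the lists and mutated genes was added after the data were seen.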

Additional observations from a re-analysis of the deposited data

Results flagged for a closer look

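The shoot change and the root change of SOT16 differed by 0.48 (SE 0.17, limma adjusted p = 0.293). Both root libraries labelled mutant lay below both Col-0 roots, at 134 and 128 against 139 and 138 FPKM, and both shoot libraries lay above, at 244 in each against 203 and 169 FPKM. Over all genes tested, 22.9% lay below Col-0 without overlap in root and 56.8% above in shoot. The share of all genes that did both is not given here, so the crossing cannot be set against it. The SOT16 shoot change was 0.08 over the median of all genes, and -0.05 after median-ratio rescaling within shoot.

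The same crossing was seen in CYP81F2, with a difference of 1.64 (SE 0.36, limma adjusted p = 0.255). Its root values were 9.22 and 8.95 FPKM in the libraries labelled mutant against 11.5 and 9.38 FPKM in Col-0, and its shoot values 3.82 and 6.25 against 0.827 and 1.51 FPKM. Neither difference passed the adjusted test, and the 95% intervals of both root changes included 0.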

How the results depend on the processing

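In root, none of the 9 genes passed under any of 18 alternatives. In shoot, where 1 passed, the count was 0 with a pseudocount of 0.1, no filter, median-ratio rescaling, shoot alone, eBayes without trend or the replicate block (MYB34 adjusted p = 0.0575), 2 with quantile normalization (MYB34 and SOT16) or the span trend removed (MYB34 and CYP81F2), and 0 to 8 with a library left out. For the difference between tissues it was 0 to 8, for the mutant tissues 8 after rescaling over all libraries and 2 to 7 with a library left out (2 without mutant root replicate 2, 3 without mutant root replicate 1 or mutant shoot replicate 1). Over all genes, shoot calls (204) were 2, 39, 17, 17, 463, 981, 0, 2 and 8 for pseudocounts 0.1 and 0.5, no filter, rescaling, quantile, span, shoot alone, block and no trend, and root calls (2) were 9 without filter, 38 with root alone and 0 to 17 with a library left out; the difference between tissues (0) gave 2075 and 11547 calls without Col-0 shoot replicate 1 or 2. Signs reversed for SOT16 in shoot (-0.053, rescaled), in root for CYP79B2 (0.00039, quantile), CYP83B1 (0.011, quantile) and MYB34 (0.0025, quantile; 0.020, span), and for the MYB122 difference (-0.0090, span). Rescaling over all libraries reversed Col-0 root against shoot in CYP79B2 (-0.61), CYP79B3 (-0.79), CYP83B1 (-1.36), SUR1 (-1.13) and MYB51 (-0.25), and mutant in CYP79B2 (-0.72), MYB34 (-0.48) and MYB51 (-0.81). With a library left out, root changes ran from -0.14 to 0.039 (CYP79B2), -0.16 to 0.026 (CYP83B1), -0.12 to 0.045 (MYB34) and -0.16 to 0.28 (MYB51), MYB122 in shoot from -0.014 to 0.012, Col-0 root against shoot of CYP83B1 from -0.0047 to 0.0885 and mutant of MYB51 from -0.20 to 0.24. The cause was not tested. Counts between tissues in this paragraph include MYB122, which met the filter through root alone. The labels pair no replicates, and same-number libraries deviated with r from -0.15 to 0.19 (14357 genes), so the block groups libraries that share only a number. Read totals are unknown, so no counting interval is given for low genes such as MYB122.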
